A study of Caenorhabditis elegans with 4 samples.

Results

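The genes described here encode the small GTPases, coats, tethers and sorting proteins that move cargo through endosomes: the *rab*, *rme*, *vps* and *snx* genes of *Caenorhabditis elegans*. They were taken by a rule on names, as every row of the count table whose WormBase identifier carries a symbol that begins with rab, rme, vps or snx followed by a number, except the yolk receptor gene *rme-2*. The rule gave 62 of 20181 rows, of which 20 were *rab*, 4 *rme*, 31 *vps* and 7 *snx* genes. Genes that belong to the same machinery under other names were followed as separate lists.

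RNA was sequenced from 2 samples of gonads dissected from N2 young adults, the wild-type laboratory strain, and from 2 samples of whole young adults of the *glp-4 (bn2)* mutant. Each sample pooled about 50 gonads or worms. Dissected gonads contain mitotic and meiotic germ cells, growing oocytes and the somatic sheath. The *bn2* allele is temperature sensitive and leaves few germ cells at the restrictive temperature, but the labels give no growth temperature, and the mutant worm keeps intestine, muscle, epidermis, neurons and the somatic gonad. The comparison therefore sets a tissue against a whole animal, and genotype and tissue cannot be told apart. The series set out to define germline-enriched and soma-enriched transcripts.

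Rab proteins are small GTPases that mark membranes: RAB-5 early endosomes, RAB-7 late endosomes, RAB-10, RAB-11.1 and RAB-35 recycling routes, and RAB-6 proteins the Golgi. The RME genes are named for receptor-mediated endocytosis and came from screens for worms whose oocytes fail to take up yolk. VPS proteins, named for vacuolar protein sorting in yeast, form the tethers, retromer, phosphoinositide kinase and ESCRT complexes of the endosome, and sorting nexins (SNX) bind phosphoinositides through PX domains and select cargo. Growing oocytes in the gonad and, among somatic cells, intestine and coelomocytes are the classical sites of endocytosis in the worm.

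Library totals were 21806767 and 24148583 counts for the gonad samples and 19538620 and 25624824 counts for the *glp-4* worms. Levels are given as CPM, counts per 1e+06 counts of the library after adjustment of its size by the TMM method, and levels of different genes are compared only as CPM per kb of exon. The 7 germline markers (*glh-1*, *pgl-1*, *gld-1*, *rec-8*, *him-3*, *puf-5* and *cbd-1*) summed to between 17558 and 18279 CPM in gonads and between 194 and 212 CPM in *glp-4* worms. Intestine markers (6 genes) summed to between 141 and 186 CPM in gonads and between 35486 and 43030 CPM in *glp-4* worms, and the 3 coelomocyte markers to at most 0.715 CPM in gonads and between 11.9 and 15.6 CPM in *glp-4* worms. Of the 3 markers of the gonadal sheath, *inx-8* was higher in gonads and *lim-7* was higher in *glp-4* worms, and the sum was between 70.1 and 83.1 CPM in gonads and between 41.3 and 49.3 CPM in *glp-4* worms. All markers of muscle (4), pharynx (3), neurons (5) and epidermis (4) were higher in *glp-4* worms. Of 4 sperm markers *spe-11* was higher in gonads, and *spe-9*, *spe-38* and *msp-142* had too few counts to be tested. The part that these tissues have in the results below was not tested. Whether the duplicates were separate cultures is not stated, and p-values therefore cover the variation between these libraries alone, possibly technical. In these bulk samples fewer cells of a type and less RNA per cell cannot be told apart.

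Of the 62 genes, 18 (29.03%) were at least 2-fold higher in gonads and 12 (19.4%) at least 2-fold higher in *glp-4* worms, at an adjusted p under 0.05 (quasi-likelihood test of edgeR, p-values adjusted over all 13101 tested rows after Benjamini and Hochberg). The same rule called 30.9% of all tested rows gonad-enriched and 53.1% enriched in *glp-4* worms, so the share of gonad-enriched members was near the background and the share enriched in *glp-4* worms lay below it. Without a fold minimum, 35 of the 61 tested members were higher in gonads and 18 in *glp-4* worms. All tested rows gave 36.4% and 56.6%. At any fold the members' share was thus above the background in gonads and below it in *glp-4* worms. Another 8 tested members did not pass the test in either direction, and *rab-11.2* had too few counts to be tested. The 2 libraries of each group did not overlap for 37 of the 61 with gonads higher and 18 with *glp-4* worms higher. All tested rows gave 38.2% and 58.2%.

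The size of the differences varied. Of the 61 tested members 30 were enriched in one group or the other and 31 differed by less than 2-fold, and 2 of the 61 (*rab-28* and *rab-37*) passed the filter on low counts through their *glp-4* counts alone and so had to differ. The median log2 fold change, gonad minus *glp-4* worm, was 0.43 over tested members and -1.502 over all tested rows. Directions near 0 therefore depend on the scale: with the median tested row set to 0, which moves the median of all tested rows up by 1.498, 45 members were gonad-enriched and 4 (*rab-3*, *rab-28*, *rab-37* and *snx-17*) enriched in *glp-4* worms, and gonad-enriched genes made up 91.8% of the enriched members in place of 60%. On that centred scale *rab-7*, *rab-11.1*, *rme-1*, *rme-6*, *snx-6*, *snx-27*, *vps-20*, *vps-32.1*, *vps-34* and *vps-52* change sign, which applies to each of their directions below.

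**Figure D1:**
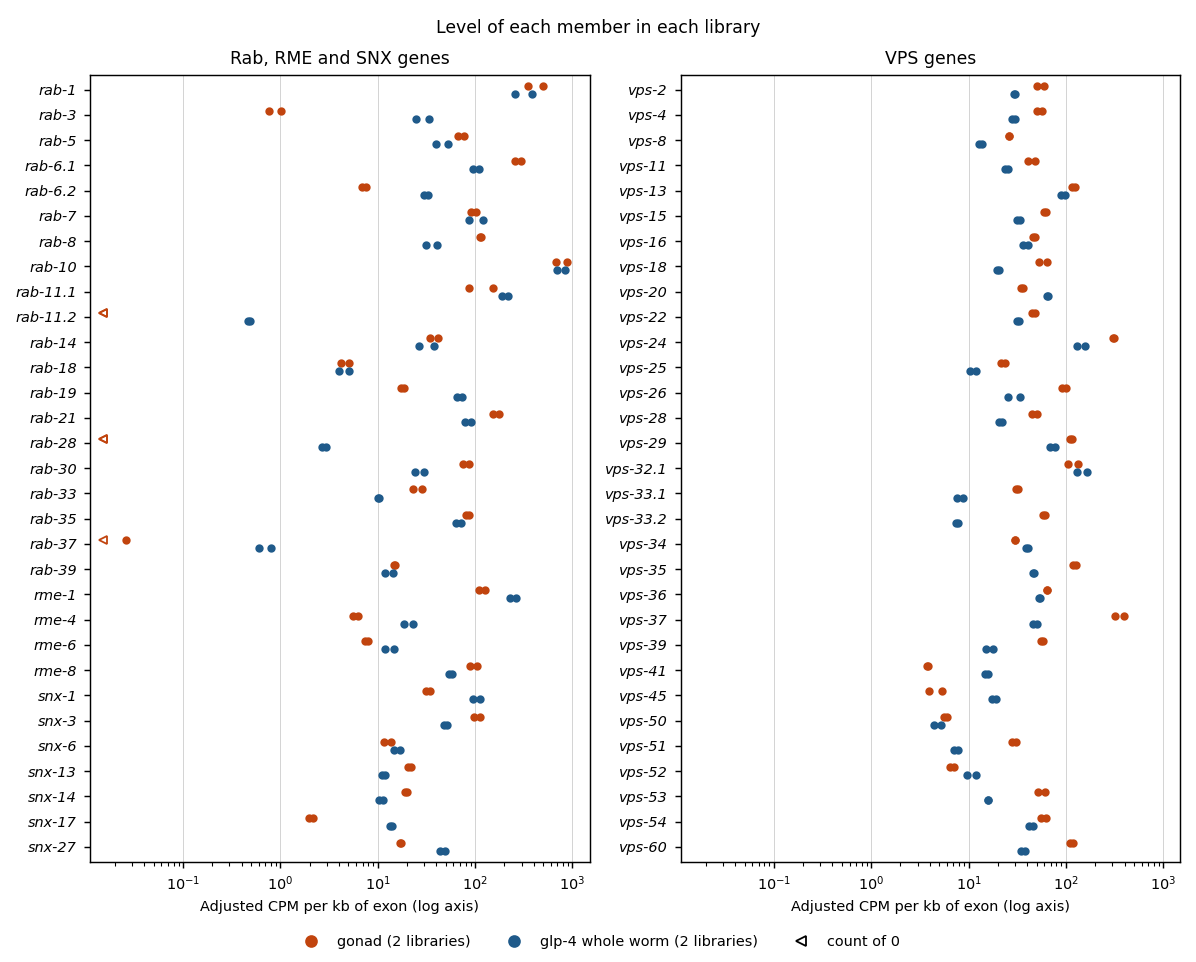
Level of each of the 62 genes in each library, as adjusted CPM per kb of exon on a log axis, with gonads in orange above *glp-4* worms in blue and open triangles for a count of 0. *rab-10* is the highest in both groups, and *rab-3*, *rab-28* and *rab-37* lie far to the left in gonads.

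Per kb of exon the most abundant members in gonads were *rab-10*, *rab-1*, *vps-37*, *vps-24* and *rab-6.1*, and in *glp-4* worms *rab-10*, *rab-1*, *rme-1*, *rab-11.1* and *vps-32.1*. *rab-10*, the Rab of basolateral recycling in the intestine (WBGene00004273, chromosome I, WBcel235 annotation), averaged 779 CPM per kb in gonads and 762 in *glp-4* worms and alone made up 15.5% and 20.5% of the summed level of the 62 genes. The order of levels was similar in both groups, with a Spearman's rho of 0.76 across the 62 genes, which share their libraries and exon lengths, and of 0.99 between replicates of either group. The length-scaled levels of the 62 genes summed to 4671 and 5366 CPM per kb in gonads and to 3444 and 3982 CPM per kb in *glp-4* worms.

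Both early endosome Rabs were higher in gonads by less than 2-fold, and neither late endosome Rab passed the test. The early endosome gene *rab-5* had 72.5 and 82.7 CPM in gonads against 42.5 and 57.2 CPM in *glp-4* worms, and the groups did not overlap. Its log2 fold change was 0.64 ± 0.15 (SE), or 0.42 without *glp-4* replicate 1. *rab-21*, which also acts in early endocytosis in mammals, was higher in gonads by 0.94 ± 0.13, and passed 2-fold with RLE normalization (1.03), with DESeq2 (1.03) and without gonad replicate 1 (1.09). The late endosome gene *rab-7* had 71.6 and 80.3 CPM in gonads against 69.1 and 95.9 CPM in *glp-4* worms, with overlapping groups. Its log2 fold change of -0.12 ± 0.15 did not pass edgeR's test (adjusted p = 0.441), was called at -0.36 without *glp-4* replicate 1 (adjusted p = 0.0281) and turned positive without gonad replicate 1 (0.005) or *glp-4* replicate 2 (0.12). *rab-14*, which acts in phagosome maturation, had 45.1 and 54.5 CPM in gonads against 34.2 and 49.0 CPM in *glp-4* worms. Its log2 fold change of 0.26 ± 0.17 did not pass the test, and was called at 0.43 without gonad replicate 1 and 0.53 without *glp-4* replicate 2.

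The recycling Rabs were abundant in both groups. *rab-10* had 474 and 611 CPM in gonads against 480 and 581 CPM in *glp-4* worms, overlapping ranges with a log2 fold change of 0.03 ± 0.16 whose sign turned with library totals (-0.12), without gonad replicate 2 (-0.15) and without *glp-4* replicate 1 (-0.12). *rab-11.1* (WBGene00004274, chromosome I, 108682 to 110057), which serves recycling endosomes and, in the early embryo, cortical granule exocytosis, had 106 and 189 CPM in gonads against 234 and 271 CPM in *glp-4* worms. Both gonad values lay below both *glp-4* values and the log2 fold change of -0.78 ± 0.19 became -0.38 without gonad replicate 1 and -1.24 without gonad replicate 2. *rab-35*, required for yolk receptor recycling in oocytes, had 75.5 and 71.5 CPM in gonads against 56.0 and 63.1 CPM in *glp-4* worms. That difference of 0.30 ± 0.13 lost its call without gonad replicate 1 (0.31, adjusted p = 0.0859) and without *glp-4* replicate 1 (0.20, adjusted p = 0.243; edgeR's quasi-likelihood test), and also with library totals (0.15) and with no filter (0.28). The *rab-11.1* paralog *rab-11.2* had 0 counts in both gonad libraries, against 8 and 9 counts in *glp-4* worms, at least 5.19-fold lower in gonads at a floor of 3 counts over the group.

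Secretory and Golgi Rabs were mostly higher in gonads. Of 6 genes 4 were gonad-enriched and 1, *rab-6.2*, was enriched in *glp-4* worms (30.9% and 53.1% of all tested rows). The exocytic Rab gene *rab-8* had 117 and 120 CPM in gonads against 32.7 and 42.03 CPM in *glp-4* worms, or 1.66 ± 0.14 (SE) on the log2 scale. The Golgi Rab genes *rab-30* and *rab-33* differed by 1.603 ± 0.15 and 1.32 ± 0.17. *rab-1*, which acts in transport between the endoplasmic reticulum and the Golgi, had 385 and 551 CPM in gonads against 280 and 421 CPM in *glp-4* worms. Those groups overlapped, and its log2 fold change of 0.42 ± 0.19 was 0.70 without gonad replicate 1, 0.15 without gonad replicate 2, 0.13 without *glp-4* replicate 1 and 0.72 without *glp-4* replicate 2. It had no call without gonad replicate 2 or *glp-4* replicate 1.

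The Golgi Rab occurs as a pair that moved in opposite directions. *rab-6.1* (WBGene00004269, chromosome III, 9004821 to 9005955) had 215 and 245 CPM in gonads against 78.8 and 90.4 CPM in *glp-4* worms, while *rab-6.2* (WBGene00004270, X chromosome, 17222475 to 17224465) had 6.88 and 6.34 CPM in gonads against 27.3 and 30.3 CPM in *glp-4* worms. Neither gene's groups overlapped. The log2 fold changes were 1.44 ± 0.14 and -2.12 ± 0.18 (SE). Per kb of exon, *rab-6.1* supplied 97.2% and 97.7% of the pair's level in gonads and 76.0% and 76.6% in *glp-4* worms. Of the reads of both genes, *rab-6.1* took 96.9% in gonad replicate 1 (95% Wilson interval 96.4 to 97.4) and 74.3% in *glp-4* replicate 1 (72.4 to 76.0), an interval of counting error only. The level of *rab-6.2* was 7.24 CPM per kb in gonads against 31.6 CPM per kb in *glp-4* worms. The difference between the shares was not tested.

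The Rabs of synaptic and regulated secretion, *rab-3* and *rab-37*, were almost absent from gonads, as was *rab-28*, which has another role. *rab-3*, the Rab of synaptic vesicles (WBGene00004267, chromosome II, 5721767 to 5727853), had 1.47 and 1.12 CPM in gonads against 36.5 and 48.9 CPM in *glp-4* worms, which amounts to -5.04 ± 0.24 on the log2 scale. *rab-37*, a Rab of secretory granules in mammals, had 0.0475 and 0 CPM in gonads against 1.11 and 1.47 CPM in *glp-4* worms. That is 1 count in the gonad libraries together and 62 in the *glp-4* libraries, a ratio of 56.8 (*glp-4* over gonad) with an exact counting interval of 9.83 to 2280. *rab-28*, a Rab of ciliated sensory neurons, had 0 counts in gonads and 2.45 and 2.67 CPM in *glp-4* worms, at least 37.3-fold lower in gonads. All 5 neuron markers were likewise higher in *glp-4* worms, with sums of 55.1 to 57.2 CPM in gonads and 284 to 314 CPM in *glp-4* worms, and their part in these results was not tested. Of the remaining Rabs, *rab-19* was lower in gonads (-1.94 ± 0.15), although 31.1% of its exons overlaps a gene on the same strand, and *rab-18* and *rab-39* did not pass the test at 0.03 ± 0.20 and 0.18 ± 0.19. The sign of *rab-18* turned with library totals (-0.13), without gonad replicate 1 (-0.07) and without *glp-4* replicate 2 (-0.15).

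**Figure D2:**
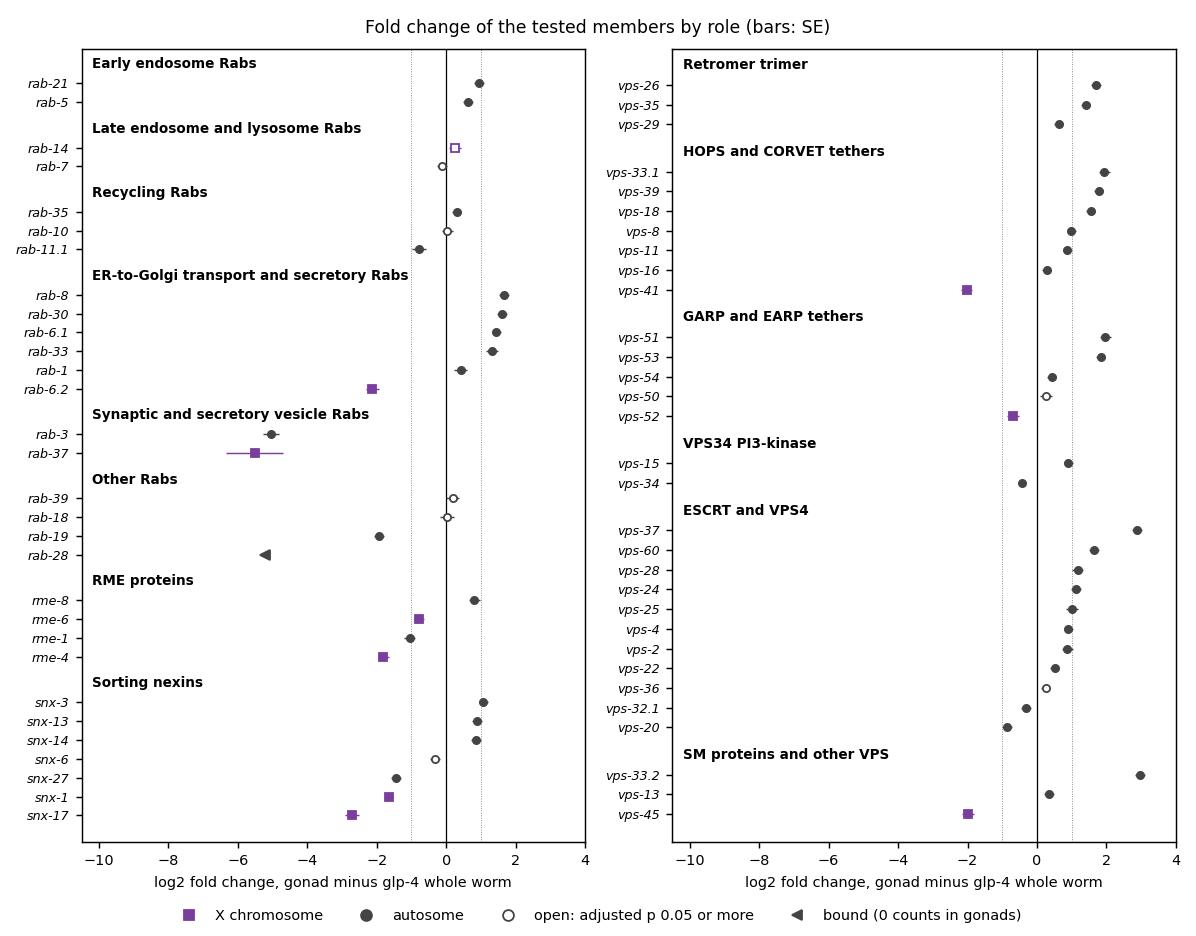
Log2 fold change, gonad minus *glp-4* worm, with SE bars for each tested member, grouped by role; purple squares are genes on the X chromosome, open symbols did not pass the test, and dotted lines mark 2-fold. Most VPS genes lie between 0 and 2, and *vps-41*, *vps-45* and *vps-52*, all on X, have the lowest values of their roles. *rab-28* is drawn at its bound.

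All 4 RME genes differed, and 3 of them were lower in gonads. Most tested rows differed as well, with 36.4% higher in gonads and 56.6% higher in *glp-4* worms. The family median of -0.92 turns positive, at 0.58, on the centred scale. *rme-1* (WBGene00004373, chromosome V, 6208885 to 6217664), an EHD-family ATPase that sends cargo from recycling endosomes back to the plasma membrane, had 358 and 418 CPM in gonads against 755 and 860 CPM in *glp-4* worms. Its log2 fold change was -1.06 ± 0.15 (SE), and it was under 2-fold without gonad replicate 1 (-0.91) and without *glp-4* replicate 2 (-0.98), which leaves 1 of 4 RME genes in place of 2 enriched in *glp-4* worms. *rme-8* (WBGene00004378, chromosome I), a J-domain protein that works with retromer, had 659 and 781 CPM in gonads against 394 and 425 CPM in *glp-4* worms and was the RME gene higher in gonads, by 0.81 ± 0.15. Per kb, the ratio of *rme-1* to *rme-8* was 1.23 and 1.21 in gonads and 4.32 and 4.57 in *glp-4* worms.

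The other 2 RME genes encode activators of Rabs and lie on the X chromosome. *rme-4*, a DENN-domain exchange factor for RAB-35, had 17.7 and 15.9 CPM in gonads against 53.1 and 64.3 CPM in *glp-4* worms, a log2 fold change of -1.81 ± 0.16 (SE), or -0.31 with no call on the centred scale. *rme-6*, an exchange factor for RAB-5, had 28.05 and 25.8 CPM in gonads against 51.4 and 41.3 CPM in *glp-4* worms, a difference of -0.78 ± 0.15. Each was thus lower relative to its Rab in gonads. The ratio of *rme-4* to *rab-35* per kb was 0.0732 and 0.0692 in gonads and 0.296 and 0.318 in *glp-4* worms, and that of *rme-6* to *rab-5* was 0.119 and 0.0963 in gonads and 0.373 and 0.223 in *glp-4* worms.

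Sorting nexins split. Of 7 genes, *snx-3* was gonad-enriched (none was with library totals in place of TMM), and *snx-1*, *snx-17* and *snx-27* were enriched in *glp-4* worms. These shares of 14.3% and 42.9% both lay below the 30.9% and 53.1% of all tested rows. The median of -0.32 becomes 1.18 on the centred scale. *snx-3*, the PX-domain protein that works with retromer in Wnt-carrier recycling, had 106 and 92.5 CPM in gonads against 49.0 and 45.3 CPM in *glp-4* worms. *snx-1*, a BAR-domain nexin that shapes retromer tubules, had 54.2 and 60.4 CPM in gonads against 166 and 196 CPM in *glp-4* worms, a log2 fold change of -1.66 ± 0.14 (SE) that was -0.16 with no call on the centred scale. *snx-27*, which recycles receptors with retromer, had 33.3 and 34.4 CPM in gonads against 86.2 and 97.4 CPM in *glp-4* worms. The groups of all 3 genes were far apart relative to their replicates. *snx-17*, an adaptor for NPxY-motif cargo in mammals, was the steepest, at 3.56 and 3.98 CPM in gonads against 24.1 and 25.2 CPM in *glp-4* worms (-2.71 ± 0.20). *snx-13* and *snx-14* were higher in gonads by 0.89 ± 0.13 and 0.87 ± 0.14. *snx-6*, a partner of SNX-1, did not pass the test at -0.32 ± 0.15 (adjusted p = 0.0533, edgeR's quasi-likelihood test), and was called at -0.41 without gonad replicate 1, -0.44 without *glp-4* replicate 2, -0.48 with library totals and -0.35 with no filter.

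The retromer trimer, which carries cargo from endosomes to the Golgi or plasma membrane, was higher in gonads in all 3 subunits. Of all tested rows 36.4% were higher in gonads. *vps-35* (WBGene00006933, chromosome II, 5907816 to 5911219) had 356 and 378 CPM in gonads against 139 and 138 CPM in *glp-4* worms, and *vps-26* had 150 and 165 CPM in gonads against 41.7 and 54.6 CPM in *glp-4* worms. Their log2 fold changes were 1.40 ± 0.13 and 1.71 ± 0.14 (SE). *vps-29* differed by 0.62 ± 0.13, but 26.5% of its exons overlaps an opposite-strand gene whose reads could not be told apart. The balance between *vps-35* and the nexin genes *snx-1* and *snx-27* differed between the groups, while *snx-3* went in the direction of *vps-35*. Mean levels per kb were 105 CPM for *snx-3* and 123 CPM for *vps-35* in gonads, and 49.6 and 46.5 CPM in *glp-4* worms. The ratio of *snx-1* to *vps-35* per kb was 0.261 and 0.273 in gonads and 2.04 and 2.42 in *glp-4* worms. That of *snx-27* to *vps-35* was 0.141 and 0.137 in gonads and 0.930 and 1.06 in *glp-4* worms. These and the other ratios were chosen after the fold changes were seen and carry no test. *snx-1* lies on X, where 79.9% of all tested rows were enriched in *glp-4* worms, and *snx-27* and *vps-35* lie on autosomes. The part of the chromosome in such ratios was not tested.

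HOPS and CORVET tether late and early endosomes before fusion and share a core. Of the 7 genes, 6 were higher in gonads, 3 of them at least 2-fold, and *vps-41* was enriched in *glp-4* worms. All tested rows gave 36.4% higher in gonads, 30.9% at least 2-fold, and 53.1% enriched in *glp-4* worms. *vps-39*, a HOPS subunit, had 179 and 171 CPM in gonads against 54.8 and 46.9 CPM in *glp-4* worms, while *vps-41* (WBGene00017974, X chromosome, 5283831 to 5289724), its HOPS partner, had 11.5 and 11.7 CPM in gonads against 48.6 and 46.0 CPM in *glp-4* worms. The log2 fold changes were 1.78 ± 0.13 and -2.02 ± 0.16 (SE). Per kb, *vps-41* stood at 0.0643 and 0.0686 of *vps-39* in gonads and at 0.884 and 0.978 of it in *glp-4* worms. The core genes *vps-18* and *vps-33.1* differed by 1.55 ± 0.13 and 1.94 ± 0.15, *vps-11* by 0.87 ± 0.13 and the CORVET gene *vps-8* by 0.99 ± 0.13. *vps-16* was higher by 0.28 ± 0.13, a call lost without gonad replicate 2 (0.28, adjusted p = 0.108) and without *glp-4* replicate 2 (0.18, adjusted p = 0.276; edgeR's quasi-likelihood test), and also with library totals (0.12) and with no filter (0.26).

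The VPS33 genes are a pair in which both members were gonad-enriched by different amounts. *vps-33.1*, the Sec1/Munc18-family core subunit, had 65.6 and 62.8 CPM in gonads against 17.97 and 15.5 CPM in *glp-4* worms. *vps-33.2* (WBGene00016960, chromosome II, 6601216 to 6603459), the VPS33B ortholog, had 117 and 124 CPM in gonads against 15.8 and 15.1 CPM in *glp-4* worms, and its log2 fold change of 2.96 ± 0.14 (SE) was the highest of the 62 genes. *vps-33.1* supplied 36.03% and 33.8% of the pair's level per kb in gonads and 53.3% and 50.8% in *glp-4* worms. *vps-45*, the Sec1/Munc18 protein of early endosomes (X chromosome), went the other way with 9.97 and 7.37 CPM in gonads against 36.1 and 32.5 CPM in *glp-4* worms (-1.99 ± 0.18).

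**Figure D3:**
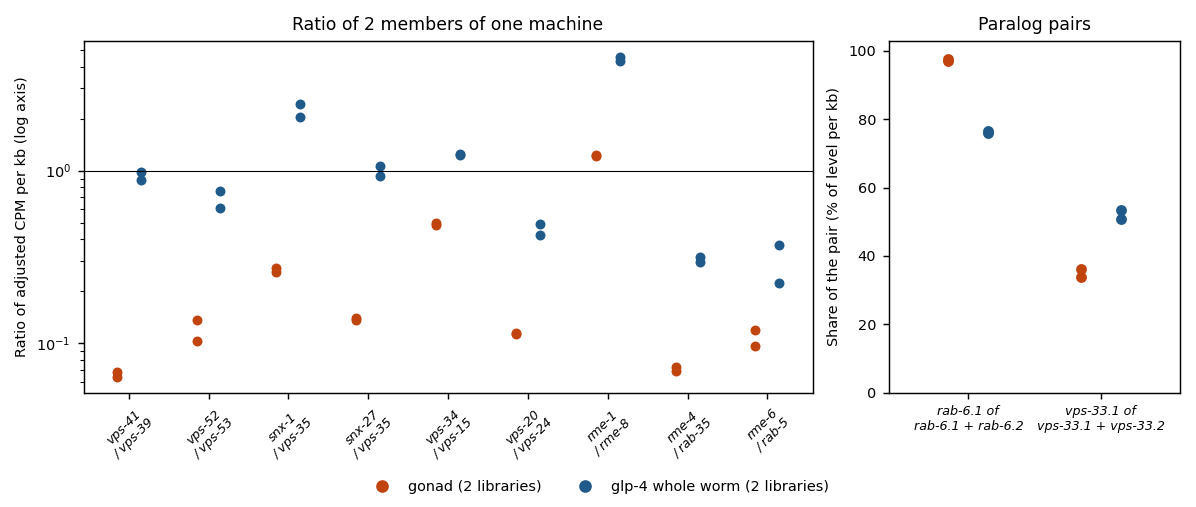
Left, ratio of CPM per kb between 2 members that work together or, for *rme-1* and *rme-8*, share the RME name, on a log axis. Right, share of the first gene in the summed level per kb of a paralog pair. Each point is 1 library, gonads in orange and *glp-4* worms in blue. Counts of *vps-24* are uncertain, since 31.95% of its exons overlaps another gene. The ratios were chosen after the fold changes were seen, and that of *vps-50* to *vps-54*, which overlapped, is not drawn. In every ratio shown the libraries of the groups do not overlap. Single genes did not overlap either in 38.2% (gonads higher) and 58.2% (*glp-4* worms higher) of all tested rows. *vps-41*, *vps-52*, *snx-1*, *rme-4* and *rme-6* lie on X, and the genes they are divided by on autosomes. *vps-41* stands at 0.0643 and 0.0686 of *vps-39* in gonads but at 0.884 and 0.978 of it in *glp-4* worms.

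The tethers of the trans-Golgi and of endosomal recycling, GARP and EARP, share VPS51, VPS52 and VPS53. *vps-51* had 69.7 and 63.2 CPM in gonads against 16.1 and 17.8 CPM in *glp-4* worms (1.97 ± 0.15, SE), and *vps-53* had 133 and 157 CPM in gonads against 40.3 and 40.8 CPM in *glp-4* worms (1.84 ± 0.14). The third shared subunit gene, *vps-52*, lies on X and was lower in gonads, with a log2 fold change of -0.69 ± 0.17. Its level per kb was 0.136 and 0.104 of that of *vps-53* in gonads and 0.762 and 0.608 of it in *glp-4* worms. The GARP gene *vps-54* was higher in gonads by 0.43 ± 0.13 and the EARP gene *vps-50* did not pass the test at 0.26 ± 0.17. The ratio of these 2 specific subunits overlapped between the groups.

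VPS34 makes the phosphoinositide that marks early endosomes and VPS15 is its regulatory partner. *vps-34* had 83.3 and 84.6 CPM in gonads against 110 and 116 CPM in *glp-4* worms, a log2 fold change of -0.43 ± 0.13 (SE), and *vps-15* was higher in gonads by 0.91 ± 0.13. Per kb the ratio of *vps-34* to *vps-15* was 0.501 and 0.485 in gonads and 1.25 and 1.23 in *glp-4* worms. *vps-13*, a large lipid transfer protein, had 1127 and 1217 CPM in gonads against 954 and 877 CPM in *glp-4* worms. Its difference of 0.36 ± 0.15 lost its call without gonad replicate 2 (0.31), *glp-4* replicate 1 (0.40) or *glp-4* replicate 2 (0.28), with library totals (0.19) and with no filter (0.33).

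ESCRT complexes sort ubiquitinated cargo into the vesicles of multivesicular endosomes, and the VPS4 ATPase takes the ESCRT-III polymer apart. Of the 11 genes, 5 were gonad-enriched and none was enriched in *glp-4* worms, with 8 higher in gonads and 2 higher in *glp-4* worms at any fold. All tested rows gave 30.9% and 53.1% enriched, and 36.4% and 56.6% at any fold. The ESCRT-I gene *vps-37* (WBGene00016990, chromosome V, 5592700 to 5593612) had 260 and 315 CPM in gonads against 36.7 and 41.2 CPM in *glp-4* worms, a 7.38-fold difference, and its level per kb ranked 3 of the 62 genes in gonads and 19 in *glp-4* worms. Its ESCRT-I partner *vps-28* differed by 1.17 ± 0.15 (SE), and the ESCRT-II genes *vps-22* and *vps-25* by 0.52 ± 0.13 and 1.02 ± 0.18. *vps-36*, the third ESCRT-II gene, did not pass the test at 0.26 ± 0.13, and was called with RLE normalization and with DESeq2 (0.34 in each). *vps-4* had 91.1 and 102.7 CPM in gonads against 49.8 and 53.6 CPM in *glp-4* worms (0.91 ± 0.13). *vps-25* was under 2-fold without gonad replicate 1 (0.98) and without *glp-4* replicate 2 (0.89), with library totals (0.86) and with no filter (0.99).

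ESCRT-III genes did not move together. *vps-60* and *vps-24* were gonad-enriched, at 1.64 ± 0.14 and 1.12 ± 0.14 (SE), and *vps-2* was higher by 0.88 ± 0.15. *vps-24*, which had 273 and 280.4 CPM in gonads against 114.9 and 139 CPM in *glp-4* worms, was under 2-fold without *glp-4* replicate 1 and with library totals (0.97 in each). Counts of *vps-60*, *vps-24* and *vps-22* are uncertain, since 37.8%, 31.95% and 23.4% of their exons overlaps another gene. *vps-20*, which begins the polymer, was lower in gonads (-0.86 ± 0.14). *vps-32.1* (chromosome II, 6589708 to 6591084), the main filament subunit, had 103.6 and 131 CPM in gonads against 128 and 164 CPM in *glp-4* worms, overlapping groups with a log2 fold change of -0.31 ± 0.15 (adjusted p = 0.0497 in edgeR). It became -0.11 without gonad replicate 1, -0.48 without gonad replicate 2, -0.50 without *glp-4* replicate 1 and -0.14 without *glp-4* replicate 2. It had no call without gonad replicate 1 or *glp-4* replicate 2, nor with RLE normalization (-0.23) or DESeq2 (-0.22). The gene lies 10131 bases from *vps-33.2* on the same strand.

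By family, VPS genes were the ones most often gonad-enriched, at 13 of 31 (41.9%) against 2 of 31 (6.45%) enriched in *glp-4* worms, where all tested rows gave 30.9% and 53.1%. The Rab genes gave 4 and 5 of 20 (20% and 25%), the sorting nexins 1 and 3 of 7 and the RME genes 0 and 2 of 4. Median log2 fold changes over tested members were 0.91 for VPS and 0.18 for Rab genes, also with *rab-28* at its bound. Summed over the family, VPS genes had 2172 and 2340 CPM per kb in gonads against 1140 and 1211 CPM per kb in *glp-4* worms. The sums of the Rab genes overlapped, at 2069 and 2577 CPM per kb in gonads and 1743 and 2156 CPM per kb in *glp-4* worms. With a 4-fold minimum only *vps-33.2* and *vps-37* were gonad-enriched, and 6 members were enriched in *glp-4* worms. The difference between families was not tested.

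The members also differed by chromosome, which the name rule did not use. On X lie 10 members: 3 Rab, 2 RME, 3 VPS and 2 SNX genes. None of the 10 was higher in gonads at an adjusted p under 0.05, 7 were enriched in *glp-4* worms, *rme-6* and *vps-52* were lower in gonads by less than 2-fold, and *rab-14* was the one that did not pass the test. Of the 52 autosomal members 18 were gonad-enriched and 5 enriched in *glp-4* worms. Among all tested rows the same rule called 79.9% of those on X enriched in *glp-4* worms and 7.73% gonad-enriched, and 48.3% and 35% of those on autosomes. The X-linked members thus shared the direction of X-linked rows at large. Their median of -1.90 lay above the -4.33 of all tested rows on X, and the median of autosomal members, 0.87, lay above the -0.71 of all tested rows on autosomes.

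**Figure D4:**
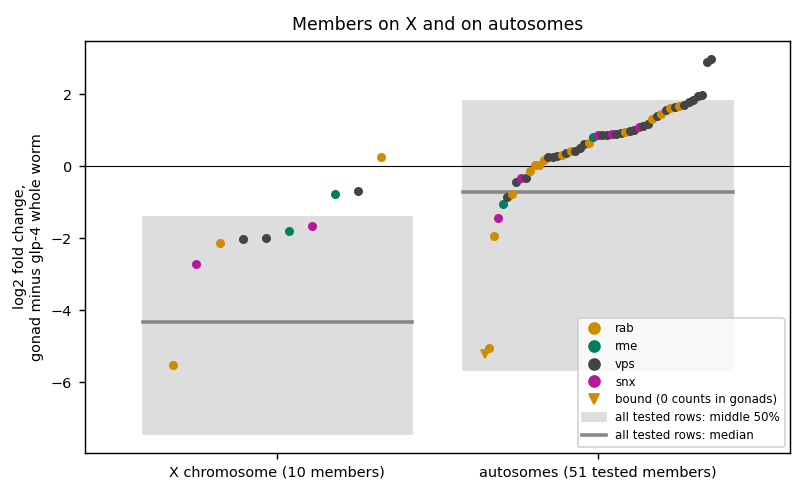
Log2 fold change, gonad minus *glp-4* worm, of each tested member on X (left) and on autosomes (right), coloured by family, over the middle 50% (grey box) and median (grey line) of all tested rows there. Of the 10 X-linked members *rab-14* alone lies above 0 and did not pass the test; on the centred scale *rme-6* and *vps-52* are above 0 as well.

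Genes of the same pathways under other names were taken from lists that, like the members, were drawn up with earlier results of these data known. Of these listed genes 99 were found in the table and tested (another 5 were not matched by name). Of the 99, 41 (41.4%) were gonad-enriched and 24 (24.2%) enriched in *glp-4* worms, beside 30.9% and 53.1% of all tested rows. Among the 24, *glo-1*, *vamp-8* and *arl-3* passed the filter on low counts through their *glp-4* counts alone and so had to differ. Regulators of Rabs split into 9 gonad-enriched and 6 enriched in *glp-4* worms of 18. *sand-1*, whose product acts in the switch of endosomes from RAB-5 to RAB-7, was the highest at 2.77 ± 0.15 (SE), with 195 ± 21.1 CPM in gonads and 28.5 ± 4.83 CPM in *glp-4* worms (SD, n = 2 each). The neuronal *aex-3*, an exchange factor for RAB-3, was lowest of the list at -6.24 ± 0.23. The 3 Rab genes with other names, *unc-108* (RAB-2), *aex-6* (RAB-27) and the gut granule Rab gene *glo-1*, were all enriched in *glp-4* worms. *unc-108* differed by -1.55 ± 0.13 and *aex-6* by -5.39 ± 0.26, and *glo-1* had 0.0949 and 0 CPM in gonads against 11.997 and 10.6 CPM in *glp-4* worms.

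The lists of complexes next to the endosome are small, and all tested rows gave 30.9% gonad-enriched and 53.1% enriched in *glp-4* worms. Of 7 further ESCRT genes 5 were gonad-enriched, and the list ranged from *stam-1* at 2.42 ± 0.14 (SE) down to *did-2* at -0.66 ± 0.17. The exocyst gave 4 of 8 gonad-enriched and none enriched in *glp-4* worms, from *exoc-7* at 1.95 ± 0.14 to *sec-15*, on X, at -0.87 ± 0.14. The Golgi COG complex gave 4 of 7, from *cogc-8* at 2.01 ± 0.13 to *cogc-4*, which did not pass the test at -0.13 ± 0.13. Phosphoinositide and lysosome genes gave 7 of 13 gonad-enriched and 3 enriched in *glp-4* worms, led by the lysosome-moving GTPase gene *arl-8* at 2.52 ± 0.13, with the PI3-kinase gene *piki-1* lowest at -1.59 ± 0.14.

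The lists of clathrin, SNARE and Arf-family genes split. All tested rows gave 30.9% gonad-enriched and 53.1% enriched in *glp-4* worms. The gonad-enriched share of the SNARE list (35.3%) was near that background. The clathrin list of 21 genes also holds genes that encode neither clathrin nor adaptors (*dyn-1*, *amph-1*, *itsn-1* and *ehbp-1*). Of the 21 listed genes 4, with *itsn-1* among them, were gonad-enriched and 6, with *amph-1* among them, enriched in *glp-4* worms. The 21 genes ranged from the AP-1 medium chain gene *unc-101* at 2.57 ± 0.20 (SE) to its relative *apm-1*. The latter had 5.67 ± 0.83 CPM in gonads and 268 ± 55.6 CPM in *glp-4* worms (SD, n = 2 each). The SNARE list of 17 genes includes *nsf-1* and *snap-1*, which take SNARE complexes apart and are not SNAREs. Both were gonad-enriched, at 1.31 and 1.33. Of the 17 listed genes 6 were gonad-enriched, up to *syx-4* at 3.32 ± 0.31, and 5 were enriched in *glp-4* worms. The lowest was *vamp-8*, with 0 counts in gonads and 1.08 CPM in *glp-4* worms. It passed the filter on low counts through its *glp-4* counts alone, as *arl-3* below did, and so had to differ. Among 5 Arf-family genes 2 were gonad-enriched, up to *arl-1* at 1.26 ± 0.19, and *arl-3*, a cilium gene, was lowest, with 0.0475 and 0 CPM in gonads against 5.33 and 8.24 CPM in *glp-4* worms. Of the 20 listed genes on X none was gonad-enriched and 16 were enriched in *glp-4* worms, against 41 and 8 of the 79 elsewhere. All tested rows on X gave 7.73% and 79.9%, so the share of listed X genes enriched in *glp-4* worms was near the background there.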

How the data were processed

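The authors deposited whole-number raw counts per gene, and a second table on a log2 scale, whose values equal log2 of 8 plus the count rescaled to the mean total of the libraries, within 5e-05. That table was not used further. The aligner, counting program and build were not given in the sources used here, and per the labels' protocols rRNA was removed and cDNA amplified without a stated strand. One row repeating another gene's counts was left out (20181 remained). Symbols, exon lengths and coordinates came from Ensembl release 115 (WBcel235), which may not be the authors' annotation. No sequences of these genes are shown.

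Counts were tested with edgeR 4.0.16 in R 4.3.3 (TMM, filterByExpr with minimum count 10 and total 15, robust quasi-likelihood fit, group as the only term; 13101 rows tested), with SE from the F statistic. Enriched means an adjusted p under 0.05 and at least 2-fold. Replicates exceeded sampling noise (chi-square per degree of freedom 18.9 in gonads, 16.9 in *glp-4* worms). Alternatives were RLE, library totals, median centring, no filter, DESeq2 1.42.0, each library left out, a replicate block and a 4-fold minimum. Values in every library are given for all RME genes, paralog pairs, the 6 most abundant members, the 5 highest and 5 lowest fold changes and 16 textbook members. The naming rule and the lists were chosen with earlier results of these data known.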

Additional observations from a re-analysis of the deposited data

How the results depend on the processing

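Counts of called genes with RLE normalization, DESeq2, no filter or library totals stayed within 1.5 times except that the RME genes enriched in *glp-4* worms fell to 1 with RLE and with DESeq2 and the gonad-enriched SNX genes to 0 with library totals. Setting the median tested row to 0 moved gonad-enriched members to 45, RAB to 13, RME to 1, VPS to 27, SNX to 4 and listed pathway genes to 70, and those enriched in *glp-4* worms to 4, 3, 0, 0, 1 and 10, with 8 members higher in *glp-4* worms at any fold. A 4-fold minimum left 2 gonad-enriched members (0 RAB, 2 VPS, 0 SNX) and 12 listed genes, and 6 members enriched in *glp-4* worms (0 RME, 1 VPS, 1 SNX) and 12 listed genes. Library totals moved the median of all rows by -0.16 and no filter by -0.65.

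Signs turned on the centred scale for *rab-11.1* (0.72), *rab-7* (1.38), *rme-1* (0.45), *rme-6* (0.72), *snx-6* (1.18), *snx-27* (0.061), *vps-20* (0.64), *vps-32.1* (1.19), *vps-34* (1.08) and *vps-52* (0.81), and for the RME and SNX medians (0.58 and 1.18). With library totals *rab-10* became -0.12 and *rab-18* -0.13. Leaving out 1 library turned the uncalled *rab-10* (range -0.15 to 0.25), *rab-18* (-0.15 to 0.19) and *rab-7* (-0.36 to 0.12). A lone library in a group is assumed there to vary like the other group. With 1 library left out, 18 to 21 members were gonad-enriched and 11 to 13 enriched in *glp-4* worms, 32 to 35 and 18 to 19 at any fold, and 41 to 44 and 22 to 25 listed genes. By family these were 4 to 5 and 5 to 6 RAB, 0 and 1 to 2 RME, 12 to 15 and 2 VPS, and 1 and 3 SNX genes.

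Replicate numbers are shared by label only, with a correlation of same-numbered deviations of 0.22. With the replicate block 18 members were gonad-enriched and 12 enriched in *glp-4* worms, as without it, and *rab-14*, *snx-6* and *vps-36* gained a call; *vps-36* also did with RLE and DESeq2. With 3 counts as the limit of a count of 0, between 0.117 and 0.154 CPM in a library, levels under this cannot be told from absence.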
